A study of Mus musculus with 23 samples.

Results

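The genes described here are 40 interferon-induced effectors, the proteins with which a cell acts on viruses, intracellular bacteria and its own growth once interferon has been sensed. They were taken by symbol from a list of names that was chosen with earlier results of these data known. Shares of members set beside shares of all genes are therefore not independent support. Each of the 40 was found on 1 row of the deposited count tables, out of 39017 genes, with counts in at least 1 library. The question asked of them was which effectors were higher in which tumours of a mouse model of histone-mutant glioma.

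Interferons bind receptors at the cell surface, whose kinases activate transcription factors in the cytoplasm. A complex that holds IRF9 binds the interferon-stimulated response element (ISRE) in promoters, while the response to type II interferon also runs through the gamma-activated site (GAS). The induced effectors block viral entry, degrade or mask RNA, halt translation, modify proteins with ISG15 or ubiquitin, and starve replicating genomes of nucleotides, and neural and glioma cells can make them as immune cells do.

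Total RNA depleted of ribosomal RNA was sequenced from 23 libraries of C57BL/6 mouse brain cells in 8 groups. Plasmids were delivered into neural progenitors of the embryonic cortex by in utero electroporation with a transposon system, and fluorescent cells were sorted and expanded. The 15 preneoplastic libraries were taken 72 hours after electroporation. The 8 tumour libraries were taken 5 to 9 months after it.

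EV ctl (2 libraries) is the empty-vector control and is labelled wild type. EV-PDGFRA (3 libraries) overexpresses Pdgfra, the receptor tyrosine kinase of the oligodendrocyte precursor lineage. WT-AP (4 libraries) overexpresses wild-type histone H3.3 with loss of Trp53 and an shRNA against Atrx. K27M-AP (4 libraries) overexpresses the mutant histone H3.3K27M instead, with the same Trp53 loss and Atrx shRNA. K27M-APP (2 libraries) adds Pdgfra overexpression to the K27M-AP genotype. K27M-AP T (3 libraries) and K27M-APP T (4 libraries) are the tumours of those genotypes. K27M-P T (1 library) is a tumour with H3.3K27M and Trp53 loss, without the shRNA and without added Pdgfra. The mutant histone and Trp53 loss are therefore shared by every tumour, and no tumour with wild-type histone was analysed. Separate animals or cultures are not stated for the libraries within a group, so p-values measure only the spread between these libraries, which may be technical. All cells had been expanded after sorting, and in such bulk libraries fewer cells of a type and less RNA per cell cannot be told apart.

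Libraries held 37300947 to 68642582 counts. Levels are given as CPM, the counts per 1000000 counts of a library, with library sizes scaled by TMM (trimmed mean of M-values). Pdgfra stood at 413 to 1290 CPM in the EV-PDGFRA libraries against 34.3 and 48.9 CPM in EV ctl. Trp53 stood at 49.3 CPM in the library labelled K27M-AP T 4, within the 41.4 to 52.8 CPM of the 5 libraries with no Trp53 loss, and at 7.15 to 27.9 CPM in the other 17 libraries labelled Trp53-/-. An edited gene may still give RNA, so this level does not check the edit. Counts of calls in K27M-AP T against K27M-AP are given with and without that library where they differ. Atrx stood at 258 CPM in the library labelled WT-AP 1, within the 189 to 299 CPM of the 6 libraries with no Atrx shRNA, and at 45.8 to 163 CPM in the other 16 libraries with it. The 10 markers of neural progenitors, the labelled cell type, summed to 4280 to 9480 CPM in the preneoplastic libraries and to 5600 to 12500 CPM in the tumours. These sums hide single markers. Nes stood at 97.7 CPM in K27M-AP 4 and at 563 to 2020 CPM in the other libraries. K27M-AP 4 also held the highest Gfap (375 CPM, astrocyte marker) and Gpr17 (1230 CPM, oligodendrocyte precursor marker). The library labelled K27M-AP T 4 had the highest Vim, at 9960 CPM, and the lowest Fabp7, at 170 CPM. The 5 markers of dividing cells summed to 65.3 CPM in K27M-AP 4 and to 190 CPM in EV ctl 5, and to 690 to 2710 CPM in the other libraries.

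The promoters are shown first because these genes are known as targets of the ISRE. RefSeq promoter windows on GRCm38.p6 were matched for 30 of the 40 genes. The ISRE core searched was GAAANNGAAA or, on the other strand, TTTCNNTTTC, overlapping matches included, in the 250 bases before the start. It was found in 13 of the 30, and in 936 of 27025 genes with a window (3.46%). The GAS letters TTCNNNGAA, which read the same on both strands, were found in 5 of the 30 and in 8.13% of all genes. The sequences below run from 5′ to 3′ along the gene's strand, and capitals mark matches to the ISRE core. The first 6 genes hold a match and belong to 4 of the role groups described below, and Samd9l is shown because it passed the test in tumours.
Isg15 (chr4:156200819-156200938, minus strand): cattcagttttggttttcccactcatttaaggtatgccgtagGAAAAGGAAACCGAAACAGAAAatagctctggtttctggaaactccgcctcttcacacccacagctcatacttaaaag
Ifit1 (chr19:34640769-34640888, plus strand): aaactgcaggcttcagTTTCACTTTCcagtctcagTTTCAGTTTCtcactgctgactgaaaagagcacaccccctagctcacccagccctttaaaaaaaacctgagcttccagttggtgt
Ifit3 (chr19:34583363-34583482, plus strand): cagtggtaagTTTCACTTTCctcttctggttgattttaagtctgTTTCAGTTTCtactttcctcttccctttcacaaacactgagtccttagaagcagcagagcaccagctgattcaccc
Gbp3 (chr3:142559924-142560043, plus strand): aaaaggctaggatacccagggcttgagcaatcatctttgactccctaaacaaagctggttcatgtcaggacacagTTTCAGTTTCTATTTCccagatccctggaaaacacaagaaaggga
Irgm1 (chr11:48871421-48871540, minus strand): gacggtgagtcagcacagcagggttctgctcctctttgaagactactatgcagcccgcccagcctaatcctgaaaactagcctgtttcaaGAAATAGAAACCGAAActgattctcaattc
Rsad2 (chr12:26456453-26456572, minus strand): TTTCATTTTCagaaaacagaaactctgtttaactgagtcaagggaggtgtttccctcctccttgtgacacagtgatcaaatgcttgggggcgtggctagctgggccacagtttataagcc
Samd9l (chr6:3399572-3399691, minus strand): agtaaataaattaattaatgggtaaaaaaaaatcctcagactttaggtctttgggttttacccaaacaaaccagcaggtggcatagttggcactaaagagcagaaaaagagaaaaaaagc
In Isg15 3 overlapping matches start 78, 72 and 66 bases before the start. Ifit1 holds 2 matches on the other strand, at 104 and 85 bases, and Irgm1 holds 2 overlapping ones at 30 and 24 bases. The other genes with a match were Bst2, Gbp2, Gbp7, Ifitm2, Igtp, Oas1a and Oas3. In the windows of Samd9l, Xaf1, Ifi35, Oasl2 and Parp12 these letters were not found, which says nothing about the binding of a factor. The 10 genes with no window in the table were Ifi27, Usp18, Mx1, Mx2, Oas1b, Oas2, Iigp1, Parp9, Parp14 and Rtp4.

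Most of the 40 effectors stood higher in tumours than in the preneoplastic cells of the same genotype, and 2 of them, Samd9l and Ifi27, passed the test in tumours without added Pdgfra. Their levels were 10.9-fold and 12.5-fold higher in K27M-AP T than in K27M-AP. The mean CPM of 38 of the 40 was higher in K27M-AP T, and the mean CPM of 38 of the 40 was higher in K27M-APP T than in K27M-APP. The same held for 50.7% and 54.8% of all 21909 genes kept. The members summed to 193 to 319 CPM in K27M-AP and to 320 and 337 CPM in K27M-APP. The tumours gave 540, 1730 and 1900 CPM in K27M-AP T, 820 to 2060 CPM in K27M-APP T and 582 CPM in K27M-P T. No tumour sum overlapped the 163 to 337 CPM of the 15 preneoplastic libraries.

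**Figure D1:**
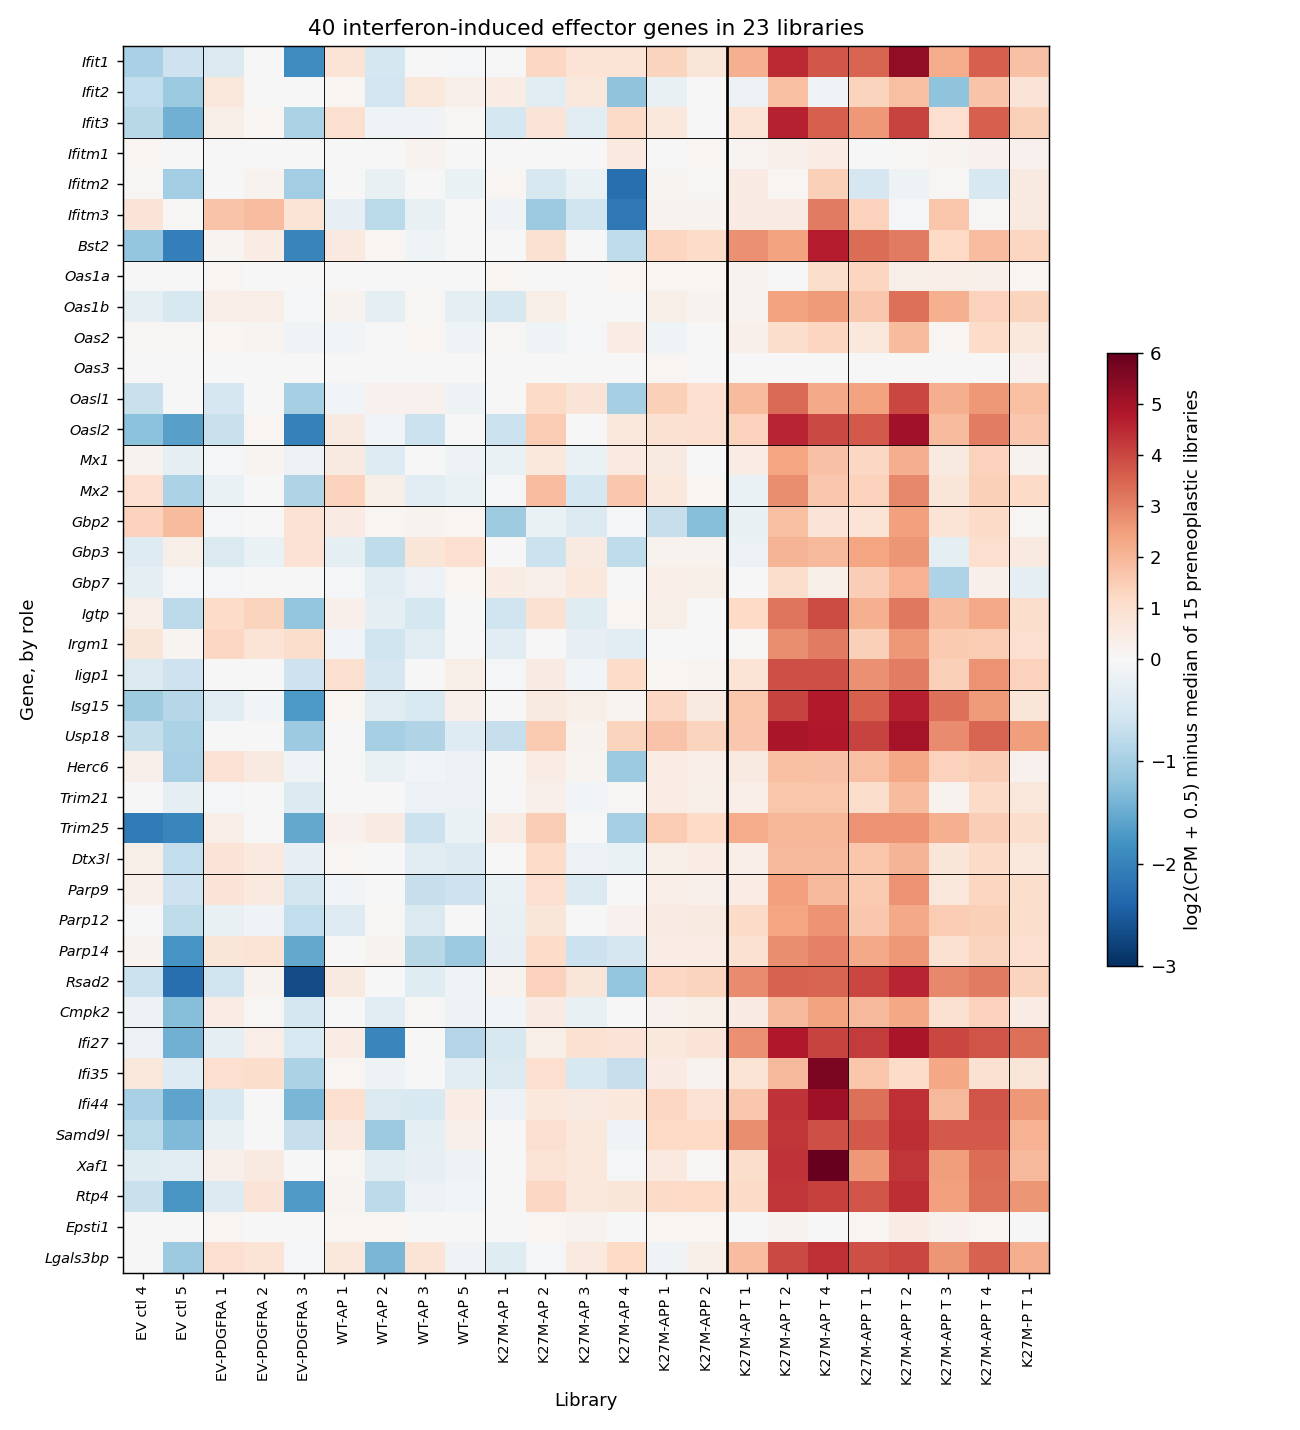
Each row is 1 of the 40 effector genes, ordered by role, and each column 1 of the 23 libraries; colour gives log2(CPM + 0.5) minus the median of the 15 preneoplastic libraries, and the thick line separates preneoplastic from tumour libraries. Tumour columns are mostly red, palest in K27M-AP T 1 and K27M-P T 1, and Ifitm1, Oas3 and Epsti1 stay near white because they had almost no counts.

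The test was edgeR's quasi-likelihood test over all genes with Benjamini-Hochberg adjustment, called at an adjusted p below 0.05. Of the 40 members, 37 passed the filter on low counts in the tumour fit. Oas1a and Oas2 passed it only through the tumour libraries, so counts over the 37 do not stand for the whole list. In K27M-AP T against K27M-AP, edgeR called 2 of the 37 higher and 0 lower, while 5 of 20373 genes (0.0245%) were called higher. At an unadjusted p below 0.05, 34 of the 37 were higher, against 7.16% of all genes. DESeq2, run on the same counts, called 26 of the 37 higher, against 2.11% of all genes. All 37 fitted log2 fold changes were positive, with a median of 2.78 beside -0.0012 over all genes. For 19 of the 40 members every K27M-AP T library stood above every K27M-AP library, as it did for 5.56% of the genes kept. Without the library labelled K27M-AP T 4, edgeR called 0 members, 29 had an unadjusted p below 0.05, and the 36 still tested were all positive with a median of 2.37. DESeq2 without that library, an alternative chosen after seeing the data, called 17 of the 36, against 0.813% of all genes, while an unadjusted p below 0.05 in edgeR marked 4.92% of all genes as higher. The count of 2 was 13 without K27M-AP T 1, beside 33 of 20301 genes, and 3 without K27M-AP T 2, beside 47 of 20212 genes. It was 1 without K27M-AP 2, beside 1 of 20344 genes, and 0 without K27M-AP 1, 3 or 4, as over all genes.

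In K27M-APP T against K27M-APP, edgeR called 0 of the 37 members and 0% of all genes. At an unadjusted p below 0.05, 23 of the 37 were higher and 0 lower, against 2.69% of all genes higher. DESeq2 called 9 of the 37 higher, against 0.299% of all genes. These were Ifi27, Samd9l, Lgals3bp, Gbp2, Isg15, Ifit1, Rsad2, Iigp1 and Xaf1. The fitted change was positive for 36 of the 37, with a median of 2.04 beside 0.046 over all genes. For 30 of the 40 members every K27M-APP T library stood above both K27M-APP libraries, as it did for 9.03% of the genes kept. With 2 libraries, the K27M-APP group sets a narrow range. The 23 at an unadjusted p below 0.05 became 12 of 38 without K27M-APP 1 and 10 of 38 without K27M-APP 2.

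**Figure D2:**
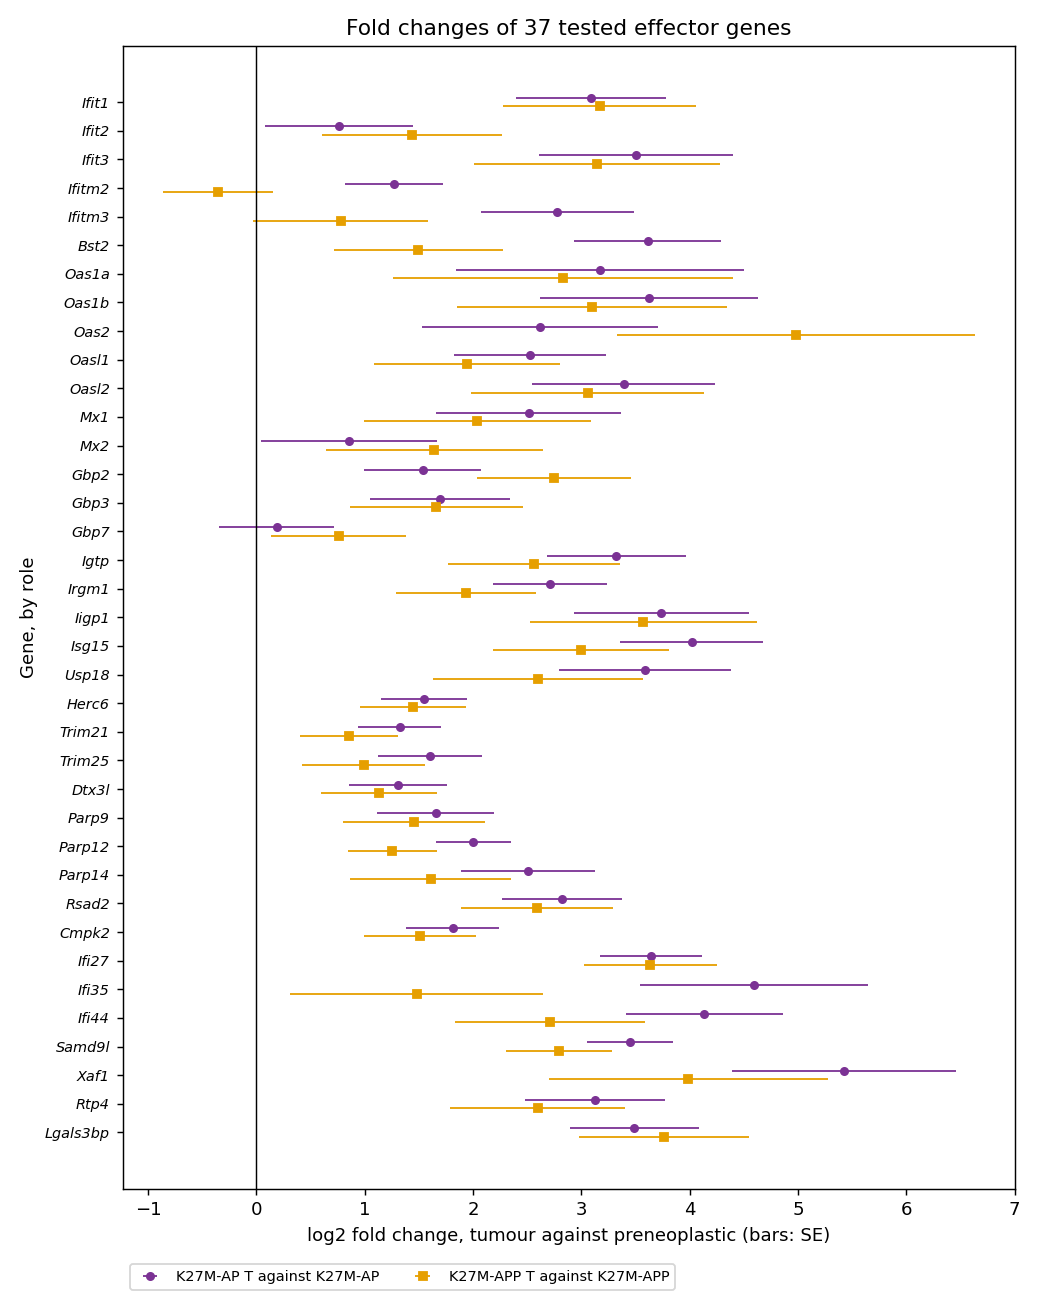
Points are edgeR log2 fold changes of the 37 tested effector genes, ordered by role, for K27M-AP T against K27M-AP (circles) and K27M-APP T against K27M-APP (squares), with bars of 1 standard error. All circles lie to the right of 0, and Ifitm2 is the only square to its left.

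Samd9l had the smallest p-value of all members in the K27M-AP T comparison. It encodes a restrictor of poxvirus growth and of translation, and the gene lies on chromosome 6 (3372257 to 3399572, minus strand, GRCm38). It stood at 3.08, 6.36, 5 and 2.7 CPM in K27M-AP 1 to 4 and at 23.5, 67.4 and 51.4 CPM in K27M-AP T 1, 2 and 4. Samd9l in K27M-APP 1 and 2 was 7.64 and 7.58 CPM, in K27M-APP T 1 to 4 it was 45, 75.7, 44.8 and 44.1 CPM and in K27M-P T it was 14.4 CPM. The controls gave 1.52 and 0.896 CPM in EV ctl, 2.54, 3.02 and 1.67 CPM in EV-PDGFRA and 4.81, 1.16, 2.39 and 3.83 CPM in WT-AP. Every tumour library, K27M-P T included, was above every preneoplastic one. The log2 fold change was 3.45 (SE 0.39, edgeR adjusted p = 0.0262) in K27M-AP T and 2.79 (SE 0.49, edgeR adjusted p = 0.97) in K27M-APP T. The first was no longer called without the library labelled K27M-AP T 4 (edgeR adjusted p = 0.069) or without K27M-AP 1, 3 or 4 (edgeR adjusted p = 0.17, 0.151 and 0.0969).

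Ifi27, a small hydrophobic membrane protein, was the other member called. The gene lies on chromosome 12 (103434211 to 103440239, plus strand). It stood at 11.4, 20.7, 30.2 and 27.4 CPM in K27M-AP and at 110, 463 and 275 CPM in K27M-AP T. The 2 K27M-APP libraries gave 24.7 and 27.5 CPM, the 4 K27M-APP T libraries 304, 498, 266 and 222 CPM and K27M-P T 161 CPM. In the controls it was 14 and 5.57 CPM in EV ctl, 13.2, 21.4 and 11.5 CPM in EV-PDGFRA and 21.9, 3.76, 16 and 8.42 CPM in WT-AP. The lowest tumour library, K27M-AP T 1, was above the highest preneoplastic one, K27M-AP 3. Fitted in edgeR, its log2 fold change was 3.64 (SE 0.47, edgeR adjusted p = 0.0443) in K27M-AP T and 3.63 (SE 0.61, edgeR adjusted p = 0.97) in K27M-APP T. Leaving out the library labelled K27M-AP T 4 gave an adjusted p of 0.0759 in edgeR, and leaving out K27M-AP 1, 2, 3 or 4 gave 0.17, 0.107, 0.152 and 0.105.

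Among members with counts in every tumour, Xaf1 and Ifi35 had the largest ratios of highest to lowest tumour library. Xaf1 binds and antagonises the apoptosis inhibitor XIAP. Its level was 1.01, 14.2 and 49.3 CPM in K27M-AP T 1, 2 and 4, 3.98, 13.8, 3.63 and 7.03 CPM in K27M-APP T 1 to 4 and 2.32 CPM in K27M-P T. No preneoplastic library passed 0.813 CPM: K27M-AP gave 0.238, 0.813, 0.69 and 0.218 CPM, K27M-APP 0.618 and 0.279 CPM, EV ctl 0.0741 and 0.0974 CPM, EV-PDGFRA 0.409, 0.588 and 0.23 CPM and WT-AP 0.312, 0.0964, 0.119 and 0.169 CPM. All tumours were above all preneoplastic libraries, but the highest tumour held 48.9 times the CPM of the lowest. Its log2 fold change in K27M-AP T was 5.43 (SE 1.04, edgeR adjusted p = 0.086), and 3.94 (SE 0.90) without the library labelled K27M-AP T 4.

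Ifi35, a cytoplasmic partner of Nmi, was far higher in 1 library than in the rest. It stood at 85.9 CPM in the library labelled K27M-AP T 4 and at 2.57 and 6.18 CPM in K27M-AP T 1 and 2. The K27M-APP T libraries gave 4.98, 3.26, 8.04 and 2.78 CPM and K27M-P T 2.35 CPM. Preneoplastic levels were 0.788, 3.01, 0.748 and 0.566 CPM in K27M-AP, 1.96 and 1.49 CPM in K27M-APP, 2.26 and 0.818 CPM in EV ctl, 2.98, 3.1 and 0.397 CPM in EV-PDGFRA and 1.38, 1.06, 1.23 and 0.882 CPM in WT-AP. Of the other 7 tumours, 4 were above the preneoplastic range, which reached 3.1 CPM, and 3 were inside it. Its log2 fold change in K27M-AP T was 4.59 (SE 1.05, edgeR adjusted p = 0.13), and 1.76 without that library. The gene model Gm11626 on the opposite strand shares 290 exon bases with Ifi35, and whether counting used strand is not given in the sources used here.

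The other members of this mixed group were Ifi44, Rtp4, Lgals3bp and Epsti1. Ifi44, a cytoplasmic protein of little known function, had a mean of 1.81 ± 0.53 CPM in K27M-AP (SD, n = 4) and 32.3 ± 26.8 CPM in K27M-AP T (SD, n = 3). Rtp4, a Golgi chaperone of cell-surface receptors, had 3.97 ± 1.53 and 35.1 ± 25.7 CPM in the same groups. Lgals3bp, a secreted galectin-binding glycoprotein, had 2.65 ± 1.54 and 30 ± 20.2 CPM. Their edgeR adjusted p in that comparison lay at 0.0731, 0.102 and 0.062, so none was called. Epsti1 reached at most 0.174 CPM in any library and was not tested.

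**Figure D3:**
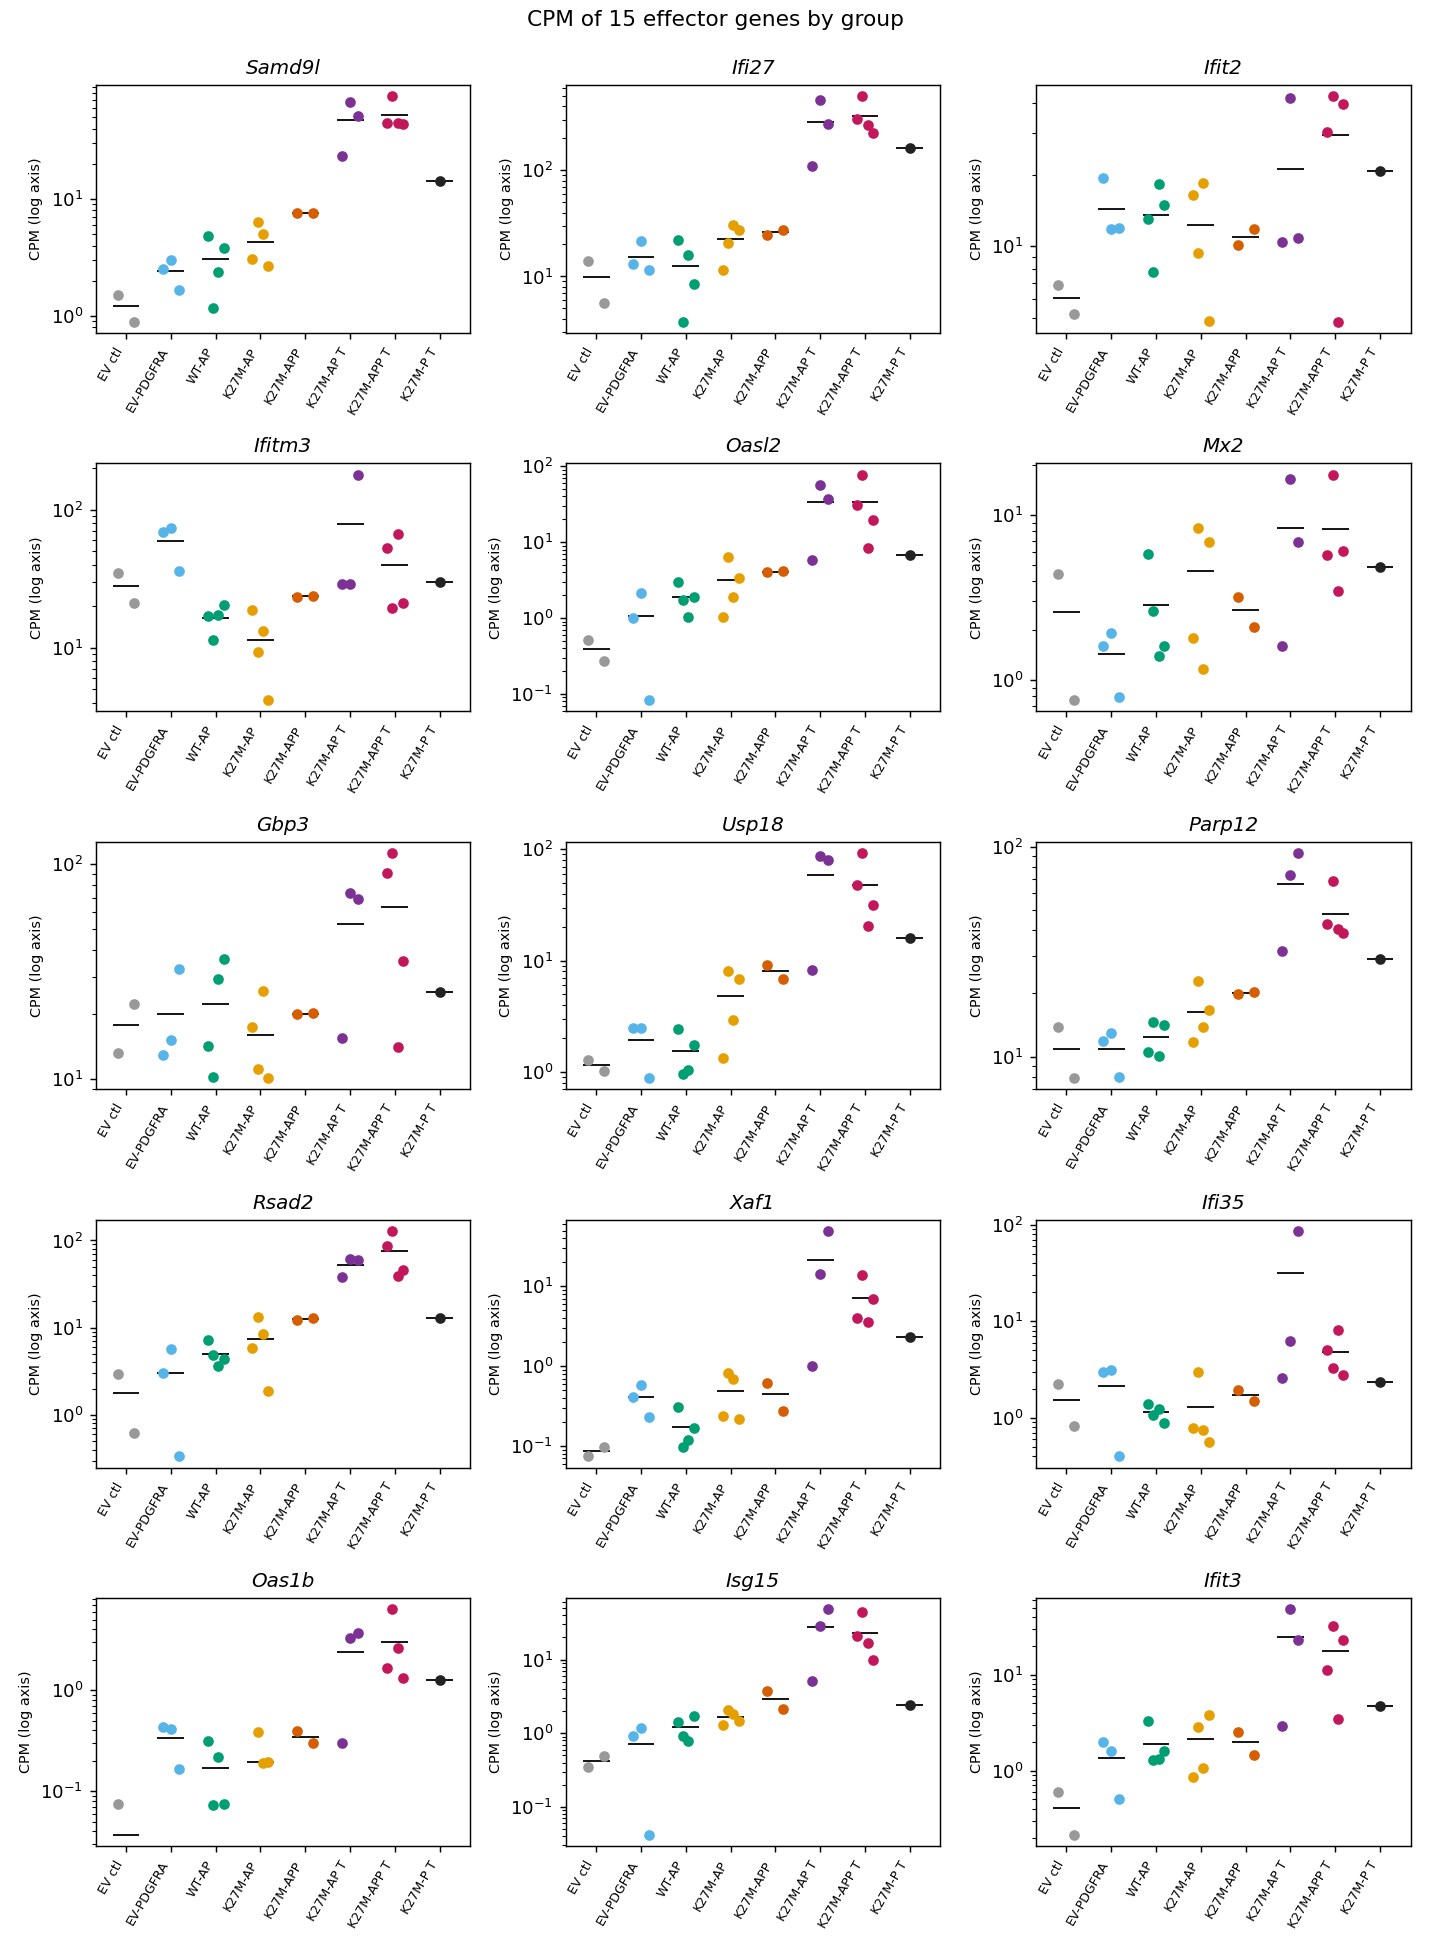
Each panel gives the CPM of 1 effector gene on a log axis, with a point for each library and a bar at the group mean, for the 15 genes whose values are given library by library. Values of 0 are not drawn, and for Samd9l, Ifi27, Xaf1 and Parp12 every tumour point lies above every preneoplastic point.

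The IFIT proteins bind RNA with foreign ends and block its translation. Of the 3 genes, neighbours on chromosome 19, edgeR called 0 in either tumour comparison, 2 had an unadjusted p below 0.05 in each, and DESeq2 called 2 in K27M-AP T against 1 in K27M-APP T. Ifit3 stood at 2.92, 47.8 and 22.9 CPM in K27M-AP T and at 11.3, 32.1, 3.42 and 23.2 CPM in K27M-APP T, with 4.69 CPM in K27M-P T. Its preneoplastic levels were 0.861, 2.82, 1.07 and 3.83 CPM in K27M-AP, 2.53 and 1.45 CPM in K27M-APP, 0.593 and 0.214 CPM in EV ctl, 1.98, 1.59 and 0.502 CPM in EV-PDGFRA and 3.31, 1.28, 1.31 and 1.58 CPM in WT-AP. K27M-AP T 1 and K27M-APP T 3 thus lay inside the preneoplastic range and the other 6 tumours above it. The log2 fold change of Ifit3 was 3.50 (SE 0.89, edgeR adjusted p = 0.162) in K27M-AP T and 3.15 (SE 1.14, edgeR adjusted p = 1.0) in K27M-APP T.

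Ifit2 was above the preneoplastic range in 5 tumours, against 6 for Ifit3, and its change in K27M-AP T was smaller. It was 10.4, 41.9 and 10.9 CPM in K27M-AP T, 30.4, 42.8, 4.83 and 39.6 CPM in K27M-APP T and 20.7 CPM in K27M-P T. In the preneoplastic cells it was 16.4, 9.42, 18.5 and 4.84 CPM in K27M-AP, 10.1 and 11.8 CPM in K27M-APP, 6.88 and 5.22 CPM in EV ctl, 19.3, 11.8 and 12 CPM in EV-PDGFRA and 13, 7.81, 18.3 and 14.9 CPM in WT-AP. K27M-AP T 1 and the library labelled K27M-AP T 4 lay inside that range, K27M-APP T 3 at its lower edge, and the other 5 tumours above it. Its log2 fold change was 0.76 (SE 0.68, edgeR adjusted p = 0.68) in K27M-AP T and -0.22 without K27M-AP T 2. In K27M-APP T against K27M-APP it was 1.43, and Ifit2 was not called there either. Ifit1 had means of 3.43 ± 1.26 CPM in K27M-AP (SD, n = 4) and 29.5 ± 20.1 CPM in K27M-AP T (SD, n = 3), and was above the preneoplastic range in 8 of 8 tumours.

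Of the membrane factors, the IFITM proteins stop viruses fusing with the cell, and Bst2, or tetherin, holds budding virions at the surface. Ifitm1 never passed 0.261 CPM and was not tested, and edgeR called 0 of the other 3 in either comparison. DESeq2 called 2 in K27M-AP T (1 without the library labelled K27M-AP T 4) against 0 in K27M-APP T. Ifitm3 was 28.7, 29 and 180 CPM in K27M-AP T 1, 2 and 4, 53.1, 19.5, 66.3 and 21.2 CPM in K27M-APP T and 30.1 CPM in K27M-P T. The preneoplastic levels were 18.7, 9.25, 13.2 and 4.18 CPM in K27M-AP, 23.4 and 23.7 CPM in K27M-APP, 34.5 and 21.1 CPM in EV ctl, 68.6, 73.4 and 36.1 CPM in EV-PDGFRA and 16.9, 11.3, 17.2 and 20.3 CPM in WT-AP. Only the library labelled K27M-AP T 4 was above that range, and the EV-PDGFRA libraries overlapped the K27M-APP T libraries. The log2 fold change of Ifitm3 was 2.78 (SE 0.71, edgeR adjusted p = 0.162) in K27M-AP T and 0.78 (SE 0.81, edgeR adjusted p = 1.0) in K27M-APP T. Without the library labelled K27M-AP T 4 the first was 1.33 (SE 0.56).

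Ifitm2 was 23, 29.6, 34.1 and 23.5 CPM in K27M-APP T 1 to 4, below both K27M-APP libraries at 34.2 and 36.8 CPM. In K27M-AP T it was 47, 36.2 and 89.4 CPM, above the 6.51 to 35.6 CPM of K27M-AP. Bst2 stood at 32.3, 25.4 and 130 CPM in K27M-AP T against 4.38, 8.89, 4.41 and 2.4 CPM in K27M-AP, and at 49.8, 41.6, 10.7 and 17.4 CPM in K27M-APP T against 11.5 and 9.89 CPM in K27M-APP. Ifitm2 shares 268 exon bases with the gene model Gm45717 on the same strand. Ifitm2 and Ifitm3 are close copies on chromosome 7, and reads matching both may have been split or dropped, since the handling of such reads is not given in the sources used here. The same holds for the Oas1, Gbp, Ifit and Mx pairs.

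Typical oligoadenylate synthetases sense double-stranded RNA and make the messenger that activates RNase L, which need not hold for each of the 6 members. All 6 lie on chromosome 5 in 2 clusters, and 5 were tested. Of these 5, Oas1a and Oas2 passed the filter only through the tumours where they are high, so a count over the 5 says little. EdgeR called 0 in either comparison, 5 had an unadjusted p below 0.05 in K27M-AP T against 4 in K27M-APP T, and DESeq2 called 3 and 0. Without the library labelled K27M-AP T 4 4 were tested, 3 had an unadjusted p below 0.05 in K27M-AP T, and DESeq2 called 1. Oasl2, an OAS-like protein, stood at 5.83, 57.2 and 37.3 CPM in K27M-AP T, 30.5, 77.8, 8.3 and 19.7 CPM in K27M-APP T and 6.86 CPM in K27M-P T. Before tumours formed it was 1.03, 6.29, 1.92 and 3.38 CPM in K27M-AP, 4.07 and 4.14 CPM in K27M-APP, 0.519 and 0.273 CPM in EV ctl, 0.999, 2.12 and 0.0836 CPM in EV-PDGFRA and 3.02, 1.74, 1.03 and 1.89 CPM in WT-AP. All tumours but K27M-AP T 1 were above that range. Its fitted change on the log2 scale was 3.39 (SE 0.85, edgeR adjusted p = 0.156) and 3.06 (SE 1.08, edgeR adjusted p = 1.0) in the 2 comparisons.

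Oas1b, annotated by GENCODE as a polymorphic pseudogene, a class for genes that code for a protein in some strains only, was low throughout. It reached 0.3, 3.25 and 3.64 CPM in K27M-AP T, 1.64, 6.3, 2.59 and 1.33 CPM in K27M-APP T and 1.27 CPM in K27M-P T. The preneoplastic values were 0, 0.383, 0.192 and 0.196 CPM in K27M-AP, 0.395 and 0.299 CPM in K27M-APP, 0.0741 and 0 CPM in EV ctl, 0.432, 0.412 and 0.167 CPM in EV-PDGFRA and 0.312, 0.0723, 0.219 and 0.075 CPM in WT-AP. Again K27M-AP T 1 alone among tumours fell inside the preneoplastic range, which reached 0.432 CPM. Oasl1 stood at 4.74 CPM or more in every tumour and at 3.52 CPM or less in every preneoplastic library. Oas1a and Oas2 reached at most 0.708 and 1.56 CPM, and Oas3 had counts in 2 of the 23 libraries only.

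The Mx proteins are dynamin-like GTPases that trap viral nucleocapsids, and the Mx1 gene of common inbred strains is known to carry a deletion. EdgeR called neither in either comparison, 1 of the 2 had an unadjusted p below 0.05 in K27M-AP T against 0 in K27M-APP T, and DESeq2 called 0 in both. Mx2, also annotated as a polymorphic pseudogene, was 1.61, 16.5 and 6.85 CPM in K27M-AP T, 5.74, 17.6, 3.48 and 6.06 CPM in K27M-APP T and 4.87 CPM in K27M-P T. It was 1.81, 8.34, 1.17 and 6.91 CPM in K27M-AP, 3.2 and 2.11 CPM in K27M-APP, 4.39 and 0.76 CPM in EV ctl, 1.61, 1.92 and 0.794 CPM in EV-PDGFRA and 5.78, 2.63, 1.41 and 1.61 CPM in WT-AP. Tumours and preneoplastic libraries overlapped, with 2 tumours above the highest preneoplastic library, K27M-AP 2. The log2 fold change of Mx2 in K27M-AP T was 0.85 (SE 0.81, edgeR adjusted p = 0.701), and -0.12 without K27M-AP T 2. In K27M-APP T it was 1.64, and every library there stood above both K27M-APP libraries, as for 9.03% of the genes kept. Mx1 stayed at or below 2.87 CPM in every library.

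The guanylate-binding proteins and the immunity-related GTPases attack the vacuoles of intracellular pathogens. Of the 6, edgeR called 0 in either comparison, 5 had an unadjusted p below 0.05 in K27M-AP T, 4 did in K27M-APP T, and DESeq2 called 3 and 2. Gbp3 stood at 15.5, 73.7 and 69 CPM in K27M-AP T, 91.5, 113, 14.1 and 35.4 CPM in K27M-APP T and 25.3 CPM in K27M-P T. In the preneoplastic groups it was 17.5, 11.1, 25.7 and 10.1 CPM in K27M-AP, 20.1 and 20.2 CPM in K27M-APP, 13.3 and 22.3 CPM in EV ctl, 12.9, 15.2 and 32.4 CPM in EV-PDGFRA and 14.2, 10.2, 29.3 and 36.1 CPM in WT-AP. K27M-AP T 2, the library labelled K27M-AP T 4 and K27M-APP T 1 and 2 stood above the preneoplastic range, and the other 4 tumours inside it. On the log2 scale its fold change was 1.69 (SE 0.65, edgeR adjusted p = 0.327) and 1.66 (SE 0.80, edgeR adjusted p = 1.0).

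Gbp2 was highest before tumours in the empty-vector controls, at 11.4 and 16.6 CPM, and only K27M-APP T 2, at 25.1 CPM, passed them. In K27M-APP it was 2.35 and 1.39 CPM against 7.62, 25.1, 7.63 and 9.69 CPM in K27M-APP T. Gbp7 had a log2 fold change of 0.19 (SE 0.53) in K27M-AP T, the smallest of the 37 tested in that comparison, and was 11.1 CPM in K27M-APP T 3, below every preneoplastic library. Irgm1 stood at 14.4, 97.2 and 121 CPM in K27M-AP T against 10.5 to 13.9 CPM in K27M-AP, and at 37.2, 84.6, 40.9 and 40.3 CPM in K27M-APP T against 13.5 and 13.3 CPM in K27M-APP. Igtp had a mean of 1.67 ± 1.08 CPM in K27M-AP (SD, n = 4) and 17 ± 12.6 CPM in K27M-AP T (SD, n = 3), and shares 162 exon bases with Irgm2 on the same strand. Iigp1 was 0.858, 10.7 and 10.8 CPM in K27M-AP T and at most 1.15 CPM in any preneoplastic library.

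The ISG15 group holds the ubiquitin-like modifier Isg15, the protease Usp18 that removes it and restrains the interferon receptor, the ligase Herc6, and the ubiquitin ligases Trim21, Trim25 and Dtx3l. No member of the 6 was called by edgeR in either comparison. In edgeR, 6 had an unadjusted p below 0.05 in K27M-AP T and 3 did in K27M-APP T. DESeq2 called 5 in K27M-AP T against 1 in K27M-APP T. Without the library labelled K27M-AP T 4 the 6 became 5, and DESeq2 called 2. Isg15 stood at 5.11, 28.7 and 48 CPM in K27M-AP T, 21.2, 44.3, 16.9 and 9.91 CPM in K27M-APP T and 2.41 CPM in K27M-P T. The preneoplastic levels were 1.28, 2.06, 1.8 and 1.48 CPM in K27M-AP, 3.71 and 2.11 CPM in K27M-APP, 0.352 and 0.487 CPM in EV ctl, 0.909, 1.18 and 0.0418 CPM in EV-PDGFRA and 1.44, 0.916, 0.796 and 1.69 CPM in WT-AP. Only K27M-P T among the tumours fell inside the preneoplastic range. The log2 fold change was 4.02 (SE 0.66, edgeR adjusted p = 0.0606) and 3.00 (SE 0.81, edgeR adjusted p = 1.0), and the 3 overlapping ISRE cores shown above lie in its promoter window.

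Usp18 gave 8.32, 86.4 and 80.1 CPM in K27M-AP T, 47.6, 93.2, 20.6 and 31.9 CPM in K27M-APP T and 15.9 CPM in K27M-P T. It was 1.32, 8.15, 2.9 and 6.8 CPM in K27M-AP, 9.16 and 6.89 CPM in K27M-APP, 1.28 and 1.01 CPM in EV ctl, 2.5, 2.47 and 0.878 CPM in EV-PDGFRA and 2.42, 0.964, 1.05 and 1.74 CPM in WT-AP. K27M-AP T 1 lay inside the preneoplastic range, which reached 9.16 CPM in K27M-APP 1, and the other tumours above it. Its log2 fold change was 3.59 (SE 0.79, edgeR adjusted p = 0.117) and 2.60 (SE 0.97, edgeR adjusted p = 1.0). The ligases differed less: in K27M-AP T the log2 fold changes of Herc6, Trim21, Trim25 and Dtx3l were 1.55, 1.32, 1.60 and 1.31, with edgeR adjusted p from 0.169 to 0.289.

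The PARPs attach ADP-ribose to proteins, and Parp9 works with Dtx3l, with which it shares 458 exon bases on the opposite strand. Of the 3, edgeR called 0 in either comparison, 3 and 2 had an unadjusted p below 0.05, and DESeq2 called 2 (1 without the library labelled K27M-AP T 4) and 0. Parp12 stood at 31.7, 73.2 and 93.4 CPM in K27M-AP T, 43, 68.6, 40.6 and 38.6 CPM in K27M-APP T and 29.1 CPM in K27M-P T. In the preneoplastic groups it gave 11.7, 23, 13.9 and 16.6 CPM in K27M-AP, 19.9 and 20.4 CPM in K27M-APP, 13.8 and 7.89 CPM in EV ctl, 11.8, 12.9 and 8.03 CPM in EV-PDGFRA and 10.5, 14.6, 10.1 and 14.2 CPM in WT-AP. All 8 tumours were above all 15 preneoplastic libraries. Its fitted change on the log2 scale was 2.00 (SE 0.35, edgeR adjusted p = 0.0727) and 1.26 (SE 0.41, edgeR adjusted p = 1.0). Parp9 and Parp14 had log2 fold changes of 1.66 and 2.51 in K27M-AP T.

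Rsad2, or viperin, makes a chain-terminating nucleotide, and Cmpk2, its neighbour on chromosome 12, is a mitochondrial nucleotide kinase. Neither was called by edgeR in either comparison, both had an unadjusted p below 0.05 in each, and DESeq2 called 2 (1 without the library labelled K27M-AP T 4) and 1. Rsad2 was 37.7, 61.1 and 60.2 CPM in K27M-AP T, 86, 128, 39.6 and 46.1 CPM in K27M-APP T and 12.9 CPM in K27M-P T. It was 5.81, 13.4, 8.44 and 1.9 CPM in K27M-AP, 12.1 and 12.9 CPM in K27M-APP, 2.91 and 0.624 CPM in EV ctl, 3.02, 5.69 and 0.334 CPM in EV-PDGFRA and 7.25, 4.87, 3.68 and 4.39 CPM in WT-AP. The 7 K27M-AP T and K27M-APP T libraries were above every preneoplastic one, and K27M-P T was not. On the log2 scale its fold change was 2.82 (SE 0.55, edgeR adjusted p = 0.0888) and 2.59 (SE 0.70, edgeR adjusted p = 1.0). Cmpk2 had 1.81 (SE 0.43) and 1.51 (SE 0.52) on the same scale.

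Between genes, levels were compared as mean CPM per kilobase of annotated exons. In K27M-AP T this quantity was highest for Ifi27 at 192, Ifitm3 at 117, Ifitm2 at 87.8 and Bst2 at 69.2. Without the library labelled K27M-AP T 4 Ifi27 stood at 195, Ifitm2 at 63.5, Ifitm3 at 42.6 and Bst2 at 31.9, so the order of Ifitm2 and Ifitm3 turned. Isg15 stood at 36.1, Samd9l at 8.73 and Oasl2 at 5.24 in the same tumours. In K27M-APP T it was 219 for Ifi27, 59.0 for Ifitm3 and 30.6 for Isg15. The effectors with little or no signal on this scale were Oas3, Epsti1, Oas1a, Ifitm1, Oas2 and Mx1, at 0.439 or less in both tumour groups.

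Single tumours differed in how many of the 40 effectors they carried above the highest of the 15 preneoplastic libraries. K27M-AP T 1 had 14, where 11.9% of the 21909 genes kept were above. K27M-AP T 2 had 34 (9.43% of all genes), and the library labelled K27M-AP T 4 had 33 (17.8%). Among the K27M-APP T libraries the counts were 33 in replicate 1 (9.8%), 36 in replicate 2 (7.71%), 23 in replicate 3 (16.2%) and 29 in replicate 4 (6.96%). K27M-P T, the only tumour without the Atrx shRNA, had 21 (7.5%), and as 1 library it has no replicate check. K27M-APP T 3 was also the only tumour with members below every preneoplastic library, 2 in number, Ifit2 and Gbp7. For Ifit2 this was nearly a tie, 4.83 CPM against 4.84 CPM in the lowest preneoplastic library, while Gbp7 stood at 11.1 CPM against 17.2 CPM.

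**Figure D4:**
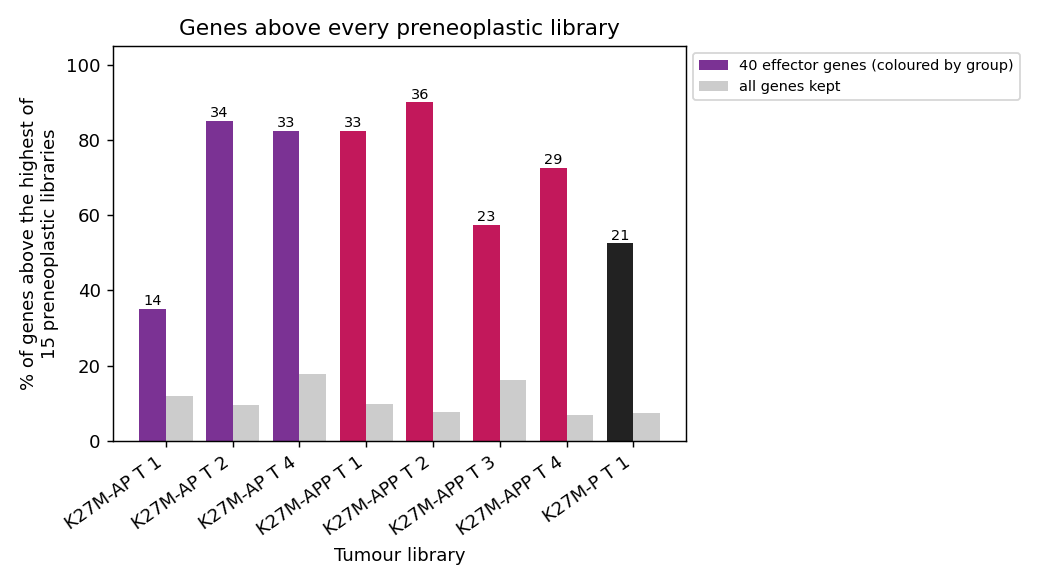
For each of the 8 tumour libraries, the coloured bar gives the percentage of the 40 effector genes above the highest of the 15 preneoplastic libraries, with their number on top, and the grey bar the same percentage over the 21909 genes kept. The coloured bar is the taller one in every library, from 14 genes in K27M-AP T 1 up to 36 in K27M-APP T 2.

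Which effectors were above also differed between tumours. Above the preneoplastic range in 8 of 8 tumours were 8 members: Ifi27, Ifi44, Ifit1, Oasl1, Samd9l, Xaf1, Parp12 and Lgals3bp. Of the 21909 genes kept, 52 (0.237%) were above in all 8 tumours. Another 8 were above in 7 tumours. The 14 members above in K27M-AP T 1 were the 8 above in 8 of 8 tumours with Isg15, Ifitm2, Oas1a, Rsad2, Bst2 and Trim25. Oas1a rested on 4 counts there. At the other end, Ifitm1 was above in 0 tumours, and Ifitm3, Gbp2 and Oas3 in 1 each. For Oas3 this was K27M-P T, on 4 counts. K27M-APP T 2 was the highest tumour library for 21 of the 40 members and the library labelled K27M-AP T 4 for 15. K27M-AP T 1 alone was the lowest for 16 and K27M-P T for 12, while for 2 members tumours tied at 0.

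The tumours with and without added Pdgfra were compared directly, and edgeR called no member in either direction. In K27M-APP T against K27M-AP T the log2 fold change was positive for 15 of the 37 tested members, with a median of -0.072 beside 0.016 over all genes. This balance turned with the libraries used. The counts were deposited in an earlier and a later table, and libraries first in the earlier one gave 32 of 36 positive (median 0.513) and those first in the later one 3 of 38 (median -1.20). Leaving out 1 library gave from 6 of 37 positive, without K27M-APP T 2, to 25 of 36, without the library labelled K27M-AP T 4, and a fit with the replicate number as a block gave 24 of 37 (median 0.183). The edgeR count was 0 members and 0% of all genes, and DESeq2 called 0 members and 0.054% of all genes. EdgeR gave 2 members at an unadjusted p below 0.05, both lower with added Pdgfra, against 2.67% of all genes in either direction. These were Ifi35 (log2 fold change -2.70, SE 0.98, edgeR adjusted p = 1.0) and Ifitm2 (-1.04, SE 0.45, edgeR adjusted p = 1.0), named after their values were seen. Without the library labelled K27M-AP T 4, the Ifi35 difference was 0.14 and that of Ifitm2 -0.59 (SE 0.48). Every K27M-APP T library was below every K27M-AP T library for 1 of 40 members, Ifitm2 (1.41% of the genes kept), and above for 0 (1.29%).

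Whether the change from preneoplastic cells to tumour differed with Pdgfra was tested as an interaction. Called by edgeR were 0 of 37 members and 0% of all genes, and by DESeq2 0 members and 0.00982% of all genes. There were 3 members at an unadjusted p below 0.05, against 3.55% of all genes: Ifitm2 (-1.62, SE 0.68), Bst2 (-2.12, SE 0.95) and Ifi35 (-3.12, SE 1.43), each with an edgeR adjusted p of 0.913. All 3 had their highest level in the library labelled K27M-AP T 4, at 89.4, 130 and 85.9 CPM. Without it the differences were -1.17 (SE 0.67), -1.03 (SE 0.83) and -0.29 (SE 0.98), and none of these 3 had an unadjusted p below 0.05. The errors of these differences are wide, so tumours with and without Pdgfra are not shown to act alike.

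Before tumours formed, the effectors summed to less than in any tumour, and few comparisons separated them. Single members were not all low. Ifitm3 in EV-PDGFRA 1 and 2, at 68.6 and 73.4 CPM, was above every tumour but the library labelled K27M-AP T 4. The sum of the 40 members was 163 and 241 CPM in EV ctl, 215 to 334 CPM in EV-PDGFRA, 182 to 254 CPM in WT-AP, 193 to 319 CPM in K27M-AP and 320 and 337 CPM in K27M-APP. In the preneoplastic fit 35 members were tested in 5 comparisons, and 1 call was made, Irgm1. The EV ctl libraries serve 2 of these comparisons, and so do WT-AP, EV-PDGFRA, K27M-AP and K27M-APP, so the comparisons are not independent of each other.

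Irgm1, an immunity-related GTPase of vacuoles and autophagy, fell in K27M-APP against EV-PDGFRA, the pair that shares Pdgfra overexpression. It stood at 13.5 and 13.3 CPM in K27M-APP and at 32.8, 23.9 and 28.5 CPM in EV-PDGFRA, with 23 and 15 CPM in EV ctl, 12.8, 8.75, 10.8 and 13.6 CPM in WT-AP and 10.5, 13.9, 11.4 and 10.8 CPM in K27M-AP. Fitted in edgeR, its log2 fold change was -1.09 (SE 0.25, edgeR adjusted p = 0.0436). EdgeR called 0.906% of all genes higher and 1.03% lower in this comparison, and the members called were 1 of 35 lower and 0 higher. An unadjusted p below 0.05 was found for 13 members, against 15.5% of all genes, and DESeq2 called 5 (3 higher, 2 lower), against 6.79%. The call was lost without any 1 of the 5 libraries compared. Of the 13, 10 were higher in K27M-APP, which became 2 of 37 without K27M-APP 1 and 6 without K27M-APP 2 or EV-PDGFRA 3.

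Wild-type histone with Trp53 loss and Atrx shRNA was compared with the empty vector. EdgeR called 0 of 35 members, with 0.0842% of all genes higher and 0.228% lower. At an unadjusted p below 0.05 there were 10, against 10% of all genes, and DESeq2 called 3, against 2.22%. The smallest p-values were those of Gbp2 (log2 fold change -1.47, edgeR adjusted p = 0.134), Trim25 (2.44, edgeR adjusted p = 0.252) and Ifi44 (2.80, edgeR adjusted p = 0.282), which are also the 3 that DESeq2 called. Gbp2 stood at 5.88, 4.46, 4.85 and 4.54 CPM in WT-AP and 11.4 and 16.6 CPM in EV ctl. Trim25 stood at 9.27, 10.7, 4.66 and 6.49 CPM in WT-AP and 1.37 and 1.56 CPM in EV ctl. Neither gene overlapped between the groups, as was the case for 9.26% of the genes kept with WT-AP higher and 10.2% with WT-AP lower. Of the 10 members, 8 were higher in WT-AP, and without EV ctl 5 a single member (1 of 37) was higher at that threshold. Without the library labelled WT-AP 1, edgeR again called 0 members in this comparison and in that of K27M-AP with WT-AP.

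Pdgfra overexpression alone was compared with the empty vector. EdgeR called 0 of 35 members and 0% of all genes. There were 9 members at an unadjusted p below 0.05, against 7.03% of all genes, and DESeq2 called 0, against 0.5%. The smallest p-values again belonged to Gbp2 (log2 fold change -1.37, edgeR adjusted p = 0.598) and Trim25 (2.22, edgeR adjusted p = 0.672), followed by Xaf1 (2.27, edgeR adjusted p = 0.681). This comparison shares its controls with the previous one. EV ctl 4 and 5 and EV-PDGFRA 3 were first in the later table, and EV-PDGFRA 1 and 2 in the earlier one. The fitted change was positive for 32 of 35 members (median 0.803). Within the later table, with 1 EV-PDGFRA library, it was positive for 14 of 37 (median -0.435). A term for the table gave 22 of 35 positive (median 0.418). Of the 9 members, 8 were higher in EV-PDGFRA, and without EV ctl 5 this became 1 of 37.

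The histone mutation itself was compared in K27M-AP against WT-AP, which share Trp53 loss and the shRNA. EdgeR called 0 of 35 members and 0.0297% of all genes higher. For 4 members the unadjusted p was below 0.05, against 3.95% of all genes, and DESeq2 called 0, against 0.317%. Usp18 had the smallest p (log2 fold change 1.61, SE 0.53, edgeR adjusted p = 1.0), at 1.32, 8.15, 2.9 and 6.8 CPM in K27M-AP and 2.42, 0.964, 1.05 and 1.74 CPM in WT-AP, so the groups overlapped. Gbp7 and Xaf1 followed, with log2 fold changes of 0.44 and 1.46 (edgeR adjusted p = 1.0 for both).

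Adding Pdgfra to the mutant histone before tumours, K27M-APP against K27M-AP, gave 0 of 35 members called by edgeR and 0% of all genes. There was 1 member at an unadjusted p below 0.05, against 5.94% of all genes, and DESeq2 called 0, against 0.0297%. That member was Ifitm3 (log2 fold change 1.05, SE 0.45, edgeR adjusted p = 0.667), at 23.4 and 23.7 CPM in K27M-APP and 18.7, 9.25, 13.2 and 4.18 CPM in K27M-AP. Gbp2 and Samd9l followed, at -0.67 and 0.83 on the log2 scale (edgeR adjusted p = 0.667 for both).

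The rest of the interferon pathway was followed in a list of 53 genes, of which 42 were tested in the tumour fit and none is an effector counted above. EdgeR called 0 of the 42 in any tumour comparison. In K27M-AP T 23 of them were higher and 1 lower at an unadjusted p below 0.05, against 7.16% of all genes higher, and DESeq2 called 15 higher, against 2.11%. Without the library labelled K27M-AP T 4 these became 19 higher (4.92% of all genes) and 5 called by DESeq2 (0.813%). In K27M-APP T 14 were higher at an unadjusted p below 0.05, against 2.69% of all genes, and DESeq2 called 2, against 0.299%. The median log2 fold change was 1.08 and 0.74 in the 2 comparisons, with 33 and 28 of the 42 positive.

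Irf9, a DNA-binding subunit of the complex on the ISRE, stood at 10.7, 18.4, 13.1 and 22 CPM in K27M-AP and at 11.9, 75.4 and 96.2 CPM in K27M-AP T, so K27M-AP T 1 lay inside the K27M-AP range. Irf7, the amplifier of interferon genes, was 1.69, 3.37, 1.46 and 2.2 CPM and 2.72, 13.8 and 38.4 CPM in the same groups, again with K27M-AP T 1 inside. The chemokine gene Cxcl10 was 3.22, 5.09, 5.69 and 2.57 CPM in K27M-AP and 12.6, 24.5 and 16.5 CPM in K27M-AP T, with no overlap. Their edgeR adjusted p in K27M-AP T lay between 0.0869 for Cxcl10 and 0.183 for Irf9. The log2 fold change of Irf7 was 3.05 with all 3 tumours and 1.91 without the library labelled K27M-AP T 4, while that of Irf9 was 1.91 and 1.43 and that of Cxcl10 2.09 and 2.15. The interferon genes themselves were at or near 0: Ifng, Ifnl2, Ifnl3 and Ifne had no counts in any library, and Ifnb1 reached at most 0.0409 CPM.

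Immune cells make and answer interferon, so their markers are given beside the effectors. The 18 microglia or macrophage markers summed to 9.64 to 21.7 CPM in the preneoplastic libraries and to 9.65 to 14.2 CPM in the tumours. Of the 18, 16 had counts somewhere and 4 were at 0 in every tumour, among them the defining genes C1qa and Tyrobp, while Csf1r made up most of the sum. The 12 T or NK cell markers summed to at most 0.24 CPM in preneoplastic libraries and 0.335 CPM in tumours. B cell, neutrophil and dendritic cell markers reached at most 0.193, 0.104 and 0.536 CPM in tumours. In the tumours the effector sum was 540 to 2060 CPM, and these marker sums were no higher than in the preneoplastic cells or stayed below 1 CPM. Csf1r alone stood at 6.17 to 11.7 CPM in every library, so the microglia or macrophage sum mostly follows that gene. The part of immune cells in the effector levels was not tested.

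**Figure D5:**
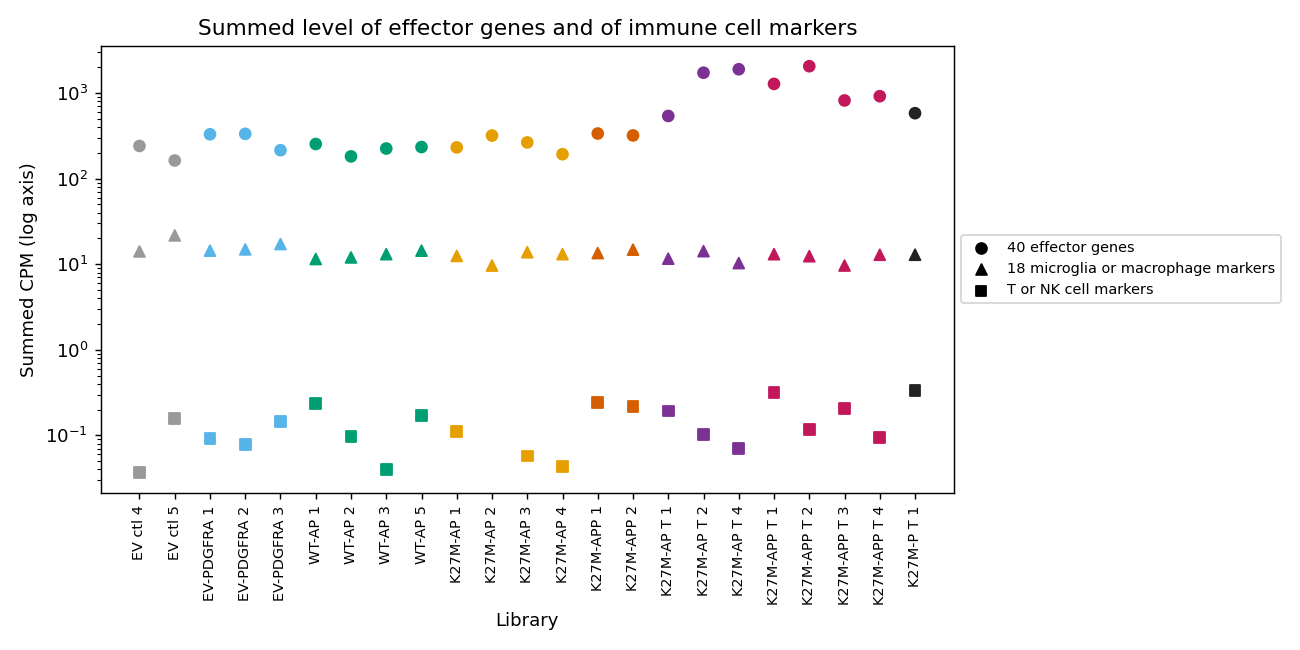
Points give, for each of the 23 libraries, the summed CPM of the 40 effector genes (circles), of 18 microglia or macrophage markers (triangles) and of 12 T or NK cell markers (squares) on a log axis, coloured by group; a sum of 0 is not drawn. Circles are higher in the 8 tumours, at 540 to 2060 CPM, while triangles stay between 9.64 and 21.7 CPM throughout.

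Sums of the markers of other cell types are given without a test. Fibroblast markers summed to 0.522 to 4.84 CPM in preneoplastic libraries and to 3.68 to 24.2 CPM in tumours, and neuron markers to 645 to 1310 CPM and 250 to 1090 CPM. Endothelial or pericyte markers summed to 2.48 to 86.3 CPM and 11.7 to 54.5 CPM, and astrocyte markers to 60 to 1010 CPM and 41.8 to 159 CPM, in the same order. Both preneoplastic maxima were in K27M-AP 4, where Pdgfrb alone gave 80.5 CPM. The next highest endothelial or pericyte sum before tumours was 12.7 CPM, in WT-AP 5. The 54.5 CPM was in K27M-APP T 3, where Kcnj8 gave 45.1 CPM, and the other tumours gave 11.7 to 20.1 CPM. The part of these cells in the effector levels was not tested. Mitochondrial genes took 0.676% to 3.01% of counts in tumours and 2.08% to 3.855% in preneoplastic libraries, and their part was not tested either. The tables split the libraries into 13 that were first in the earlier table and 10 that were new in the later one. Among libraries of the earlier one, all 36 members tested were positive in K27M-AP T against K27M-AP (median log2 fold change 2.26), and among those of the later one 37 of 38 were (median 3.23). Libraries of the earlier one also gave 35 of 36 positive in K27M-APP T against K27M-APP (median 2.43), and no K27M-APP library was new in the later one.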

How the data were processed

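The authors deposited raw counts per gene, whole numbers with no normalization, in an earlier table of 21 columns and a later one of 22. Per the submitters' processing notes, the mm10 build was used, and the tools listed, with no role given, are STAR 2.3.0e, Picard, featureCounts 1.4.4, Trimmomatic 0.32, GATK and SAMtools 0.1.19. The strand setting, the handling of reads with several matches and the annotation release are not given in the sources used here. The 8 columns that matched no sample's label were not used. The 12 libraries found in both tables hold identical counts there and were used once. Each library is assigned to the table that first holds it (13 earlier, 10 later), and 162 symbols stand on more than 1 row, none of them a member.

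Members were matched by symbol. The members and all gene lists were chosen with earlier results of these data known, and the report does not treat them as independent support. Levels are CPM after TMM scaling over 23 libraries and 21909 genes. Tests used edgeR 4.0.16 (limma 3.58.1, R 4.3.3), quasi-likelihood, with genes filtered by filterByExpr (minimum count 10, total 15), over all genes, with Benjamini-Hochberg adjustment at 0.05. One fit held 13 libraries, the K27M-AP and K27M-APP cells with both groups of tumours of those genotypes (20373 genes, 9 residual degrees of freedom, biological coefficient of variation 0.475). The other held the 15 preneoplastic libraries (20197 genes, 10 residual degrees of freedom, 0.399). K27M-P T, a group of 1, entered no test. DESeq2 1.42.0 was the alternative test. Other alternatives were DESeq2 size factors, no filter, other sets of libraries, the deposited table as a term or a split, the replicate number as a block, and leaving out each library. The edgeR script was tested on simulated counts. Depth was 37300947 to 68642582 counts per library, so CPM below about 0.1 rest on a handful of reads.

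Values in every library are given for members called in a tumour comparison, for the member with the highest mean CPM in each role group, and for the 6 with the largest ratio of highest to lowest tumour library (mean of at least 1 CPM in tumours). In preneoplastic comparisons called members are named, or else the 3 with the smallest p. Gene coordinates, types and exon lengths come from GENCODE M21 on GRCm38, and promoter sequences from RefSeq on GRCm38.p6. Figures were drawn with matplotlib 3.10.9. A result for 1 gene of the interferon pathway list is not reported here.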

Additional observations from a re-analysis of the deposited data

Results flagged for a closer look

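Of 48 sets of library values from groups of 4 libraries, 4 had 1 library far from the other 3 by Dixon's criterion, and chance alone gives about 1 in 20. Ifi35 stood at 3.01 CPM in K27M-AP 2, while the other K27M-AP libraries held 0.566 to 0.788 CPM. In K27M-APP T 2, Samd9l stood at 75.7 CPM against 44.1 to 45.0 CPM in the other K27M-APP T libraries. Parp12 stood at 68.6 CPM in that same library against 38.6 to 43.0 CPM, and K27M-APP T 2 was also the tumour with the highest sum of effectors. Ifit3 stood at 3.31 CPM in WT-AP 1, the library with Atrx at the level of libraries without the shRNA, against 1.28 to 1.58 CPM in the other WT-AP libraries.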

How the results depend on the processing

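Members called higher in K27M-AP T against K27M-AP numbered 2 in edgeR, beside 5 of 20373 genes. With no filter on low counts they numbered 6, beside 27 of 29005 genes. With all 23 libraries in the fit they numbered 14, beside 128 of 21909 genes. Within the earlier table, or with only the groups compared, the number was 0, as over all genes. DESeq2 called 26, beside 430 of 20373 genes. Without the library labelled K27M-AP T 4 DESeq2 called 17, beside 165 of 20293 genes. Leaving out 1 library in edgeR gave 0 to 13. In K27M-APP T against K27M-APP, 0 became 9 with DESeq2, and in WT-AP against EV ctl DESeq2 called 2 higher and 1 lower. In K27M-APP against EV-PDGFRA, 0 higher became 3 with only the groups compared, where 933 of 18687 genes were called higher and 1331 lower. DESeq2 called 3 higher in the same comparison, beside 582 of 20197 genes higher and 789 lower. The 1 member called lower there, Irgm1, became 0 with no filter, a term for the count table, all 23 libraries or any 1 library left out (0 to 0), and 2 with only the groups compared or with DESeq2. Ifit2 in K27M-AP T changed sign to -0.10 within the later table and -0.22 without K27M-AP T 2 (-0.22 to 1.08 over left-out libraries), Mx2 to -0.12 without K27M-AP T 2 (-0.12 to 1.35), and Ifi35 in K27M-APP T against K27M-AP T to 0.14 without the library labelled K27M-AP T 4 in both tools (from -3.25). Apart from the smaller sets of libraries, the cause was not tested. DESeq2 size factors moved the median of all genes by at most 0.0255 (log2).

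Same-numbered libraries did not deviate together in every pair (r of 0.262, 0.0841 and 0.00675 for replicates 1, 2 and 4 of K27M-AP T and K27M-AP), and 2 of 3 correlated best with their own number in each comparison with 3 pairs. With the replicate block, the counts were 2 in K27M-AP T against K27M-AP and 0 lower in K27M-APP against EV-PDGFRA, where Irgm1 was no longer called. Every other count stayed at 0.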
